A study of Homo sapiens with 24 samples.

Results

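The genes described are 10 that encode amino acid transporters of the plasma membrane: SLC7A5, SLC3A2, SLC1A5, SLC1A4, SLC38A1, SLC38A2, SLC7A1, SLC7A2, SLC43A1 and SLC6A9. They were taken by gene name from a table of 60504 rows, in which each had 1 row. Transcripts were sequenced in 3 human cancer cell lines, 48 hours after transfection with small interfering RNA against GCDH (siGCDH) or with a control siRNA (siControl). GCDH is the gene of glutaryl-CoA dehydrogenase, which acts in mitochondria on the way from lysine and tryptophan to acetyl-CoA. The 8 groups of 3 libraries were siGCDH and siControl in A375 melanoma cells of batch 1, A375 of batch 2, SK-Hep1 cells labelled as liver and SKBR3 cells labelled as breast. A375 batch 1 was made with a 3' tag kit, which reads near the poly(A) tail, and the other 18 libraries with a full-length poly(A) kit, so that in A375 the batch and the kit cannot be told apart. The 3 replicates of a group were wells seeded together, so p-values measure the spread between wells, which may be technical. The sources used here give neither the number of siRNA duplexes nor their sequences.

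Amino acids cross the plasma membrane through exchangers, which bring in 1 amino acid for another that leaves, and through sodium-coupled carriers, which load the cell from outside. SLC7A5 (LAT1) is the light chain of an exchanger for leucine and other large neutral amino acids, and SLC3A2 (CD98) is the heavy chain that carries it to the membrane. SLC1A5 (ASCT2) and SLC1A4 (ASCT1) exchange small neutral amino acids, SLC1A5 with glutamine as its main substrate. SLC38A1 (SNAT1) and SLC38A2 (SNAT2) take up glutamine and alanine with sodium, SLC7A1 (CAT1) and SLC7A2 (CAT2) carry arginine and lysine, SLC43A1 (LAT3) lets large neutral amino acids pass by facilitated diffusion, and SLC6A9 (GlyT1) takes up glycine. Transcription of several of these genes is known to respond to ATF4, the factor of the amino acid response, which binds C/EBP-ATF elements, and SLC7A5 and SLC1A5 are known targets of MYC, which binds E-boxes.

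RefSeq promoter windows (GRCh38.p14), from 250 bases before to 50 bases after an annotated start, were taken for 9 of the 10 genes. They came to 16 windows, and SLC7A2 was left out of the search. These windows were searched on both strands for the E-box CACGTG, which 7.26% of all 35116 windows held, and for the C/EBP-ATF letters TGATGNAA, which 3.62% held. The E-box was in 3 of the 16 windows (SLC7A5, SLC43A1 and the second window of SLC1A5), the C/EBP-ATF letters were in 5 (SLC3A2, SLC38A1, SLC7A1, the second window of SLC1A4 and the third of SLC1A5), and no window held both. Not all windows are printed, and those of SLC7A1, SLC1A4 and SLC1A5 with the C/EBP-ATF letters and that of SLC6A9 are left out. The windows printed are those of SLC7A5 and SLC38A1 with a motif, the first of SLC3A2, and the first and second of SLC1A5. Capitals mark the motif on either strand. They lie at chr16:87869458-87869757, minus strand (SLC7A5), chr11:62881449-62881748, plus strand (SLC3A2), chr19:46788545-46788844, minus strand (first window of SLC1A5, with neither motif), chr19:46787244-46787543, minus strand (second window of SLC1A5) and chr12:46266467-46266766, minus strand (SLC38A1).
SLC7A5: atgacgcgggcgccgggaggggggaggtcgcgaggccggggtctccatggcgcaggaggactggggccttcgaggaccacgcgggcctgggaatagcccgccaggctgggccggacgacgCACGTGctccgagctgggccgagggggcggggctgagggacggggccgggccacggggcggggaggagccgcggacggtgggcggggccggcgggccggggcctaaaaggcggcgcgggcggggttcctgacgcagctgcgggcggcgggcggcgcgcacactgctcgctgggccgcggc
SLC3A2: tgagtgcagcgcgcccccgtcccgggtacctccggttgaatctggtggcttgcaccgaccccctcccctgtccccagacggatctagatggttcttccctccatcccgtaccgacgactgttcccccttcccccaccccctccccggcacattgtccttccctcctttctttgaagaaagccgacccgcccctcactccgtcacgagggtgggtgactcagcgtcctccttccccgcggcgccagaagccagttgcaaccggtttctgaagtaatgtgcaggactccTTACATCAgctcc
SLC1A5: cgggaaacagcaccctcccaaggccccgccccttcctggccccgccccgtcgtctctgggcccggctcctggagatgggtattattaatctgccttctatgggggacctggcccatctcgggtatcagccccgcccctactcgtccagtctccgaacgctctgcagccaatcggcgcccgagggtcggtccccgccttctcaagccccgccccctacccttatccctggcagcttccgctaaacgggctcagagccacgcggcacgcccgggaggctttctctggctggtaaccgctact
SLC1A5: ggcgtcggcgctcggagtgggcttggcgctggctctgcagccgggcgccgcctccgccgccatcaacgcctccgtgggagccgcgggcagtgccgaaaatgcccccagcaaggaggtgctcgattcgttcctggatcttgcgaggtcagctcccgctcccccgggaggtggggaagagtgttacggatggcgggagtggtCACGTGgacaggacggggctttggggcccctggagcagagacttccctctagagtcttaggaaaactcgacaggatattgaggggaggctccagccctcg
SLC38A1: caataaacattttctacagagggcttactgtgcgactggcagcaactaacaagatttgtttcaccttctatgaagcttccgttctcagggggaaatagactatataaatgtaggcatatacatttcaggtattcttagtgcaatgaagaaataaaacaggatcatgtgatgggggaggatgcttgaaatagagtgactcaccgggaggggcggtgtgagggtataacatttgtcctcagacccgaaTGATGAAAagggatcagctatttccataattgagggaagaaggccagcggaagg
A match says only that the letters are in the window.

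Levels are in TPM, a length-corrected share of all transcripts of a library. The depth of the libraries is unknown, since TPM keep no read totals. GCDH was at 20.8% (A375 batch 1), 17.8% (A375 batch 2), 29.3% (SK-Hep1) and 26.4% (SKBR3) of its siControl mean, and every siGCDH library was below every siControl library of its line and batch. In A375 batch 1 GCDH had 1.5, 0.940 and 0.310 TPM with siGCDH, against 6.69, 4.76 and 1.77 TPM with siControl, and this difference did not pass (log2 fold change -1.42 with SE 0.48, adjusted p = 0.118). Rows of a chromosome 21 region with ribosomal RNA genes took 33% of TPM in siGCDH and 17.1% in siControl libraries of A375 batch 1, and under 0.1% in each other group. The cell type markers went against the labels in places. The siControl libraries labelled SKBR3 held ERBB2, amplified in the SKBR3 line, at 25.5 ± 2.23 TPM, below 46.4 ± 5.12 TPM in SK-Hep1 and 32.7 ± 1.72 TPM in A375 batch 2, and the epithelial keratin KRT19 at 0.227 ± 0.393 TPM. SK-Hep1 had KRT19 at 1262 ± 15.7 TPM and the hepatocyte gene ALB and the endothelial gene PECAM1 at 0 in every siControl library. Another hepatocyte marker, SERPINA1, was at 9.59 ± 1.24 TPM there. In siControl libraries of A375 batches 1 and 2 the melanocyte markers SOX10 (148 and 457 TPM), S100B (38.8 and 114 TPM) and MITF (11.2 and 11.6 TPM) were present. The pigment genes PMEL and MLANA averaged under 1 TPM in both batches. "SKBR3" below means the libraries labelled SKBR3.

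With siGCDH, transcripts of the large neutral amino acid transporter SLC7A5 and of the glutamine transporter SLC1A5 were 3.84- to 4.15-fold lower in SK-Hep1 and SKBR3, whereas in A375 batch 2 SLC7A5 was nearly level and SLC1A5 rose. The glycine transporter SLC6A9 likewise rose in A375 batch 2 and fell in SKBR3 and in SK-Hep1, in SK-Hep1 to under 1 TPM in every siGCDH library. The heavy chain SLC3A2 did not follow its light chain in SK-Hep1, SKBR3 and A375 batch 2, whereas in A375 batch 1 the ratio of the chains was about level. The arginine and lysine transporter SLC7A2 fell in SKBR3, A375 batch 2 and SK-Hep1, in SK-Hep1 at levels near 1 TPM. In bulk RNA, fewer cells with a transcript and less of it per cell cannot be told apart.

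**Figure D1:**
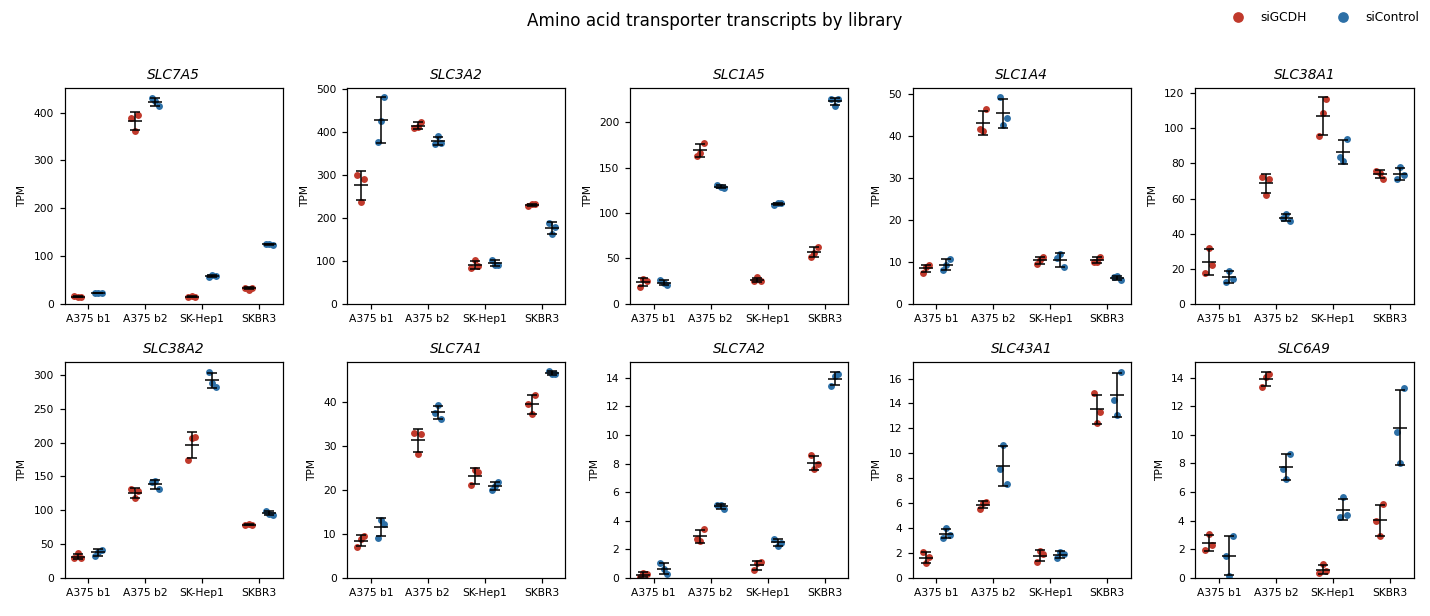
TPM of each transporter in every library (points), with mean and SD of the 3 libraries of a group (black), siGCDH in red and siControl in blue. b1 and b2 are the A375 batches. SLC7A5 and SLC1A5 are lower with siGCDH in SK-Hep1 and SKBR3 without overlap, while SLC1A5 and SLC6A9 are higher with siGCDH in A375 batch 2.

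Each line and batch was tested on its own 6 libraries with limma on log2(TPM + 1), among genes that averaged 1 TPM or more, and a gene was called at a Benjamini-Hochberg adjusted p under 0.05 over all genes tested. For A375 batch 2, 4 of the 10 transporters were called higher, against 17.9% of all genes tested, and 4 lower, against 15.7%. In SK-Hep1, 1 of 10 was called higher (37.3% of all genes) and 5 lower (18.2%). Of those 5, SLC7A2 (0.877 TPM with siGCDH and 2.48 TPM with siControl) and SLC6A9 (0.577 and 4.76 TPM) passed the filter through their siControl level. With a filter of 5 TPM, 3 were called lower. In SKBR3, 2 of 10 were called higher (47.3% of all genes) and 6 lower (14.7%). For A375 batch 1, limma called 0 of the 9 tested higher (1.18% of all genes), and 0 also at an unadjusted p under 0.05, and 1 lower (6.73%), with 3 lower at an unadjusted p under 0.05. SLC7A2 had a mean under 1 TPM there and was not tested. The median log2 fold change over the transporters was -0.25 in A375 batch 1 (-0.20 over all genes tested), -0.11 in A375 batch 2 (0.02), -0.32 in SK-Hep1 (0.18) and -0.25 in SKBR3 (0.29).

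Because the median of all genes was off 0, the libraries were also scaled to a common median. That changed the share of higher genes among all called genes to 41.3%, against 14.9% without scaling, in A375 batch 1, to 55.7% against 67.3% in SK-Hep1 and to 54.7% against 76.3% in SKBR3. After scaling, 0 transporters were called in A375 batch 1, 4 higher and 4 lower in batch 2, 0 higher and 5 lower in SK-Hep1, and 1 higher and 8 lower in SKBR3. Calls over all genes were then 207 higher and 294 lower of 12868 tested in A375 batch 1, and 2680 and 2452 of 15185 in batch 2. They were 4200 higher and 3341 lower of 14557 in SK-Hep1, and 5043 and 4171 of 16494 in SKBR3. No called transporter changed its sign under median scaling or quantile normalization.

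**Figure D2:**
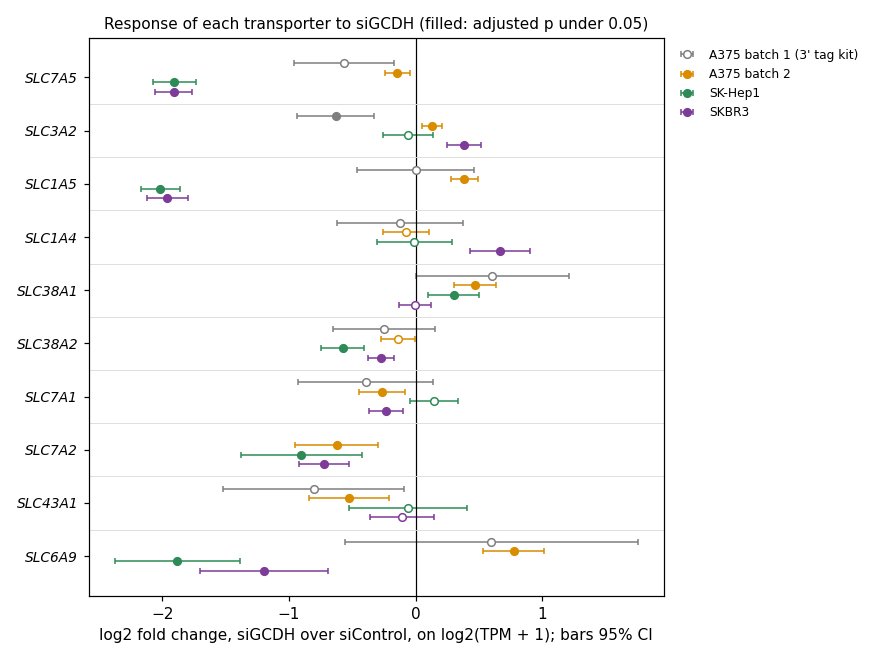
Log2 fold change of each transporter, siGCDH over siControl, on the log2(TPM + 1) scale with its 95% confidence interval, by line and batch. Filled points have an adjusted p under 0.05. SLC7A5, SLC1A5 and SLC6A9 lie between -2.02 and -1.20 in SK-Hep1 and SKBR3, and between -0.14 and 0.78 in A375 batch 2.

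SLC7A5 (ENSG00000103257, hg38 chromosome 16, 87830023 to 87869488, minus strand) had 14.8, 16 and 13.8 TPM in siGCDH libraries, against 56.4, 60.01 and 58.8 TPM in siControl libraries of SK-Hep1. In SKBR3 it had 33.5, 29.6 and 33.9 TPM with siGCDH, against 125, 125 and 123 TPM with siControl. The groups lay far apart in both lines, and the mean was 3.93-fold lower in SK-Hep1 (log2 fold change -1.91 with SE 0.07, adjusted p = 1.4e-06) and 3.84-fold lower in SKBR3 (log2 fold change -1.91 with SE 0.06, adjusted p = 1.4e-06). SLC7A5 in A375 batch 2 had 389.5, 361 and 395 TPM with siGCDH, against 429, 423 and 413 TPM with siControl. The groups did not overlap, and the fall was small (log2 fold change -0.14 with SE 0.04, adjusted p = 0.0339), while without siGCDH replicate 1 or 2, or without siControl replicate 1, 2 or 3 its adjusted p was 0.052 to 0.103 and its log2 fold change -0.16 to -0.10. The 3' tag libraries of A375 batch 1, in which it was listed far lower, had 16.6, 13.7 and 14.7 TPM with siGCDH, against 22, 23.1 and 22.7 TPM with siControl, again without overlap, but the difference did not pass (log2 fold change -0.57 with SE 0.17, adjusted p = 0.0877). In that batch the chromosome 21 ribosomal rows took 33% of TPM with siGCDH and 17.1% with siControl. Under other settings its log2 fold change there ran from -0.59 to -0.28, and SLC7A5 was called in the joint fit of 24 libraries alone (adjusted p = 4.97e-06).

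SLC3A2 (ENSG00000168003, hg38 chromosome 11, 62856102 to 62888875, plus strand), the heavy chain, had 228, 232 and 231 TPM with siGCDH, against 189, 162 and 179 TPM with siControl in SKBR3. Every siGCDH library was above every siControl library there (log2 fold change 0.38 with SE 0.06, adjusted p = 0.000895), though after median scaling the difference did not pass (0.14, adjusted p = 0.0775). SLC3A2 in SK-Hep1 had 83, 102 and 87.7 TPM with siGCDH, against 102, 91.2 and 90.7 TPM with siControl. These groups overlapped (log2 fold change -0.06 with SE 0.09, adjusted p = 0.557), with a 95% interval of -0.26 to 0.14. A375 batch 2 had 409.5, 409.8 and 423 TPM with siGCDH, against 371, 390.0 and 374 TPM with siControl, a small rise without overlap (log2 fold change 0.13 with SE 0.03, adjusted p = 0.0224), and without siGCDH replicate 3, or without siControl replicate 1 or 3 its adjusted p was 0.0625 to 0.0783 and its log2 fold change 0.11 to 0.12. A375 batch 1 had 300.4, 237 and 289 TPM with siGCDH, against 375.2, 424 and 481 TPM with siControl. It was the transporter called in that batch (log2 fold change -0.63 with SE 0.13, adjusted p = 0.0306), but without siGCDH replicate 1, 2 or 3, or without siControl replicate 2 or 3 its adjusted p was 0.0582 to 0.0999 and its log2 fold change -0.70 to -0.53, and with the chromosome 21 ribosomal rows removed the log2 fold change was -0.32 (adjusted p = 0.167).

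The ratio of light to heavy chain, SLC7A5 over SLC3A2 within each library, does not depend on the scaling of a library. It averaged 0.140 ± 0.0111 with siGCDH and 0.706 ± 0.0575 with siControl in SKBR3, and 0.165 ± 0.0125 with siGCDH and 0.620 ± 0.0584 with siControl in SK-Hep1 (SD, n = 3 each). For A375 batch 2 it averaged 0.923 ± 0.0366 with siGCDH and 1.12 ± 0.0370 with siControl. In these 3 comparisons every siGCDH library had a lower ratio than every siControl library, with an exact two-sided permutation p of 0.1, the smallest that 3 against 3 libraries allow. The ratio in A375 batch 1 was 0.0546 ± 0.00346 with siGCDH and 0.0534 ± 0.00577 with siControl, the groups overlapped and the exact permutation p was 0.8. The mean log2 ratio, siGCDH minus siControl, was -2.33 in SKBR3, -1.91 in SK-Hep1, -0.27 in A375 batch 2 and 0.04 in A375 batch 1.

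**Figure D3:**
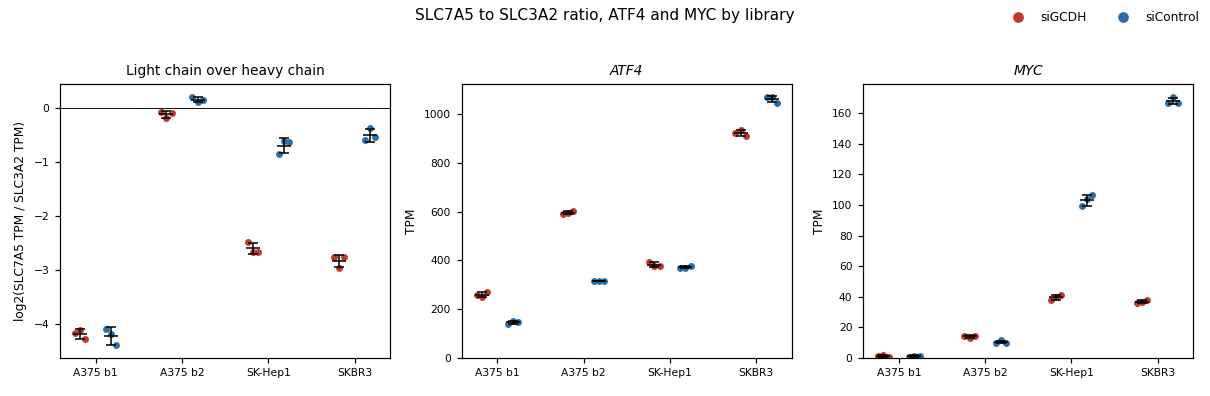
Left, log2 of the ratio of SLC7A5 to SLC3A2 TPM. Middle and right, TPM of the transcription factor genes ATF4 and MYC. Points are libraries (siGCDH in red, siControl in blue), black lines mean and SD of 3. The ratio lies between -2.97 and -2.48 with siGCDH in SK-Hep1 and SKBR3, below all their siControl libraries, while ATF4 is higher with siGCDH in both A375 batches and MYC is lower with siGCDH in SK-Hep1 and SKBR3.

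SLC1A5 (ENSG00000105281, hg38 chromosome 19, 46774883 to 46788594, minus strand), the glutamine exchanger, had 25.2, 29 and 25.3 TPM in siGCDH libraries, against 108, 111 and 111 TPM in siControl libraries of SK-Hep1. In SKBR3 it had 51.5, 56.3 and 62.6 TPM with siGCDH, against 225, 218 and 226 TPM with siControl. The mean was 4.15-fold lower in SK-Hep1 (log2 fold change -2.02 with SE 0.07, adjusted p = 8.44e-07) and 3.93-fold lower in SKBR3 (log2 fold change -1.96 with SE 0.07, adjusted p = 2.03e-06), with wide gaps between the groups. The direction was the opposite in A375 batch 2, with 163, 167 and 178 TPM with siGCDH, against 131, 129 and 128 TPM with siControl (log2 fold change 0.39 with SE 0.04, adjusted p = 0.000706), and the groups again did not overlap. A375 batch 1 had 18.6, 27.4 and 25 TPM with siGCDH, against 26, 23.2 and 21.1 TPM with siControl. Those groups overlapped, and the 95% interval of -0.46 to 0.46 includes the change seen in batch 2 (adjusted p = 0.997).

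SLC1A4 (ENSG00000115902, hg38 chromosome 2, 64988477 to 65023865, plus strand), which exchanges alanine, serine, cysteine and threonine, was higher with siGCDH in SKBR3, where it had 9.9, 10.01 and 11.1 TPM with siGCDH, against 6.31, 6.55 and 5.62 TPM with siControl. The groups did not overlap (log2 fold change 0.67 with SE 0.10, adjusted p = 0.000971), and after median scaling the call held (0.45, adjusted p = 0.00645), while after quantile normalization it did not (0.21, adjusted p = 0.104). It averaged 10.3 ± 0.919 TPM with siGCDH and 10.4 ± 1.58 TPM with siControl in SK-Hep1 and 43 ± 2.93 TPM with siGCDH and 45.3 ± 3.42 TPM with siControl in A375 batch 2 (SD, n = 3 each). Neither difference passed, with log2 fold changes of -0.01 (95% interval -0.30 to 0.28) and -0.07 (-0.25 to 0.11). The means in A375 batch 1 were 8.42 ± 0.906 TPM with siGCDH and 9.29 ± 1.36 TPM with siControl, with overlap.

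The sodium-coupled carriers SLC38A1 (ENSG00000111371, hg38 chromosome 12, 46183063 to 46270017) and SLC38A2 (ENSG00000134294, hg38 chromosome 12, 46358189 to 46372867), neighbours on the minus strand with a related substrate range, did not move together. SLC38A1 had 72.4, 62.2 and 71.3 TPM with siGCDH, against 49.2, 51.3 and 47 TPM with siControl in A375 batch 2, a rise without overlap (log2 fold change 0.47 with SE 0.07, adjusted p = 0.00249). In SK-Hep1 it had 95.5, 109 and 117 TPM with siGCDH, against 83.8, 81.4 and 94.1 TPM with siControl (log2 fold change 0.30 with SE 0.09, adjusted p = 0.0191), but without siGCDH replicate 2 or 3, or without siControl replicate 1 or 2 its adjusted p was 0.0563 to 0.063 and its log2 fold change 0.24 to 0.29, and after median scaling it did not pass (0.18, adjusted p = 0.079). In SKBR3 it had 75.7, 74.5 and 71.2 TPM with siGCDH, against 71.3, 77.8 and 73.2 TPM with siControl, with overlap and a 95% interval of -0.13 to 0.12, and after median scaling it was called lower (-0.24, adjusted p = 0.00603). Its means in A375 batch 1 were 23.9 ± 7.21 TPM with siGCDH and 15.1 ± 3.28 TPM with siControl (adjusted p = 0.204).

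SLC38A2, whose protein and transcript are known to increase when amino acids run short, was the most abundant of the 10 transcripts in SK-Hep1. It had 174, 207 and 208 TPM with siGCDH, against 305, 288 and 283 TPM with siControl there, without overlap (log2 fold change -0.58 with SE 0.07, adjusted p = 0.00039). In SKBR3 it had 78.2, 79.4 and 78.9 TPM with siGCDH, against 99.1, 94.1 and 93.4 TPM with siControl, a smaller fall, also without overlap (log2 fold change -0.27 with SE 0.04, adjusted p = 0.00128). Its means in A375 batch 2 were 125 ± 7.17 TPM with siGCDH and 138 ± 6.54 TPM with siControl, and in batch 1 31.3 ± 4.09 TPM with siGCDH and 37.5 ± 4.67 TPM with siControl, and neither difference passed (adjusted p = 0.104 and 0.424).

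Of the cationic amino acid transporters, SLC7A2 (ENSG00000003989, hg38 plus strand) was the lower in level and the one that fell in each full-length comparison. It had 8.6, 7.61 and 7.94 TPM with siGCDH, against 13.4, 14.1 and 14.2 TPM with siControl in SKBR3 (log2 fold change -0.72 with SE 0.08, adjusted p = 0.000282). In A375 batch 2 it had 2.74, 2.58 and 3.42 TPM with siGCDH, against 5.1, 5.07 and 4.82 TPM with siControl (log2 fold change -0.62 with SE 0.14, adjusted p = 0.0129), and in SK-Hep1 0.520, 1.02 and 1.09 TPM with siGCDH, against 2.74, 2.26 and 2.43 TPM with siControl (log2 fold change -0.90 with SE 0.21, adjusted p = 0.00708). The groups did not overlap in any of the 3, although at the level in SK-Hep1 the log2(TPM + 1) scale understates the change, and the mean there was 2.83-fold lower. In that line the gene passed the filter of 1 TPM through its siControl level, and its log2 fold change was -1.45 with a pseudocount of 0.1 and -0.35 with a pseudocount of 5. In A375 batch 1 it had 0.0700, 0.350 and 0.270 TPM with siGCDH, against 1.02, 0.590 and 0.260 TPM with siControl, too low to be tested.

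SLC7A1 (ENSG00000139514, hg38 chromosome 13, 29509410 to 29595688, minus strand) had 39.6, 37.4 and 41.6 TPM with siGCDH, against 47.1, 46.5 and 46.4 TPM with siControl in SKBR3, a small fall without overlap (log2 fold change -0.24 with SE 0.06, adjusted p = 0.00922). In A375 batch 2 it had 32.9, 28.2 and 32.7 TPM with siGCDH, against 37.5, 39.2 and 36.2 TPM with siControl (log2 fold change -0.26 with SE 0.08, adjusted p = 0.0356), but without siGCDH replicate 2 or 3, or without siControl replicate 1, 2 or 3 its adjusted p was 0.0539 to 0.11 and its log2 fold change -0.29 to -0.19. In SK-Hep1 it had 21.2, 24.5 and 24 TPM with siGCDH, against 19.9, 21 and 21.8 TPM with siControl, overlapping groups with a 95% interval of -0.05 to 0.33. Its means in A375 batch 1 were 8.48 ± 1.28 TPM with siGCDH and 11.5 ± 2.1 TPM with siControl (adjusted p = 0.337).

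SLC6A9 (ENSG00000196517, hg38 chromosome 1, 43991500 to 44031467, minus strand), the glycine transporter, had 0.330, 0.950 and 0.450 TPM with siGCDH, against 4.25, 5.62 and 4.42 TPM with siControl in SK-Hep1, a mean 8.26-fold lower (log2 fold change -1.88 with SE 0.21, adjusted p = 0.000201). It passed the filter of 1 TPM there through its siControl level, every siGCDH library was under 1 TPM, and the log2 fold change was -2.94 with a pseudocount of 0.1 and -0.81 with a pseudocount of 5, so that its size is uncertain. In SKBR3 it had 3.96, 2.94 and 5.14 TPM with siGCDH, against 10.2, 8.01 and 13.3 TPM with siControl (log2 fold change -1.20 with SE 0.22, adjusted p = 0.00228). SLC6A9 in A375 batch 2 had 13.4, 14 and 14.3 TPM with siGCDH, against 7.6, 6.89 and 8.68 TPM with siControl, a mean 1.8 times as high (log2 fold change 0.78 with SE 0.10, adjusted p = 0.00135). In the joint fit of 24 libraries this rise did not pass (adjusted p = 0.0817). The groups did not overlap in any of the 3, and the direction in A375 batch 2 was opposite to that in the other lines. A375 batch 1 had 1.97, 3.07 and 2.3 TPM with siGCDH, against 1.54, 0.160 and 2.91 TPM with siControl, widely scattered and overlapping (adjusted p = 0.508).

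SLC43A1 (ENSG00000149150, hg38 chromosome 11, 57484534 to 57515786, minus strand) had 5.53, 5.99 and 6.1 TPM with siGCDH, against 8.71, 10.7 and 7.54 TPM with siControl in A375 batch 2. The groups did not overlap and the gene was called lower (log2 fold change -0.53 with SE 0.14, adjusted p = 0.0216), but without siGCDH replicate 1, or without siControl replicate 1 or 2 its adjusted p was 0.0565 to 0.0656 and its log2 fold change -0.54 to -0.41. A375 batch 1 had 2.06, 1.16 and 1.67 TPM with siGCDH, against 3.23, 3.97 and 3.46 TPM with siControl, also without overlap, but this did not pass (log2 fold change -0.80 with SE 0.31, adjusted p = 0.159). Under other settings the log2 fold change in that batch ran from -1.11 to -0.37, and the gene was called in the joint fit alone (adjusted p = 0.000583). SLC43A1 averaged 13.5 ± 1.19 TPM with siGCDH and 14.6 ± 1.76 TPM with siControl in SKBR3 and 1.76 ± 0.444 TPM with siGCDH and 1.86 ± 0.267 TPM with siControl in SK-Hep1, with overlap in both, and was called lower in SKBR3 after median scaling (-0.33, adjusted p = 0.0327).

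Whether a response differed between lines was tested as an interaction on the 12 full-length libraries of each pair of lines. Between A375 batch 2 and SK-Hep1, 4 transporters had the higher effect in A375 (17.4% of all genes) and 1 the lower (28.8%). SLC1A5 differed by 2.40 (SE 0.08, adjusted p = 3.52e-09), SLC7A5 by 1.76 (SE 0.08, adjusted p = 3.08e-08) and SLC38A2 by 0.44 (SE 0.10, adjusted p = 0.00422) on the log2 scale, and SLC7A1 by -0.41 (SE 0.11, adjusted p = 0.0103). SLC6A9 differed by 2.66 (SE 0.21, adjusted p = 2.26e-06), and by 3.79 with a pseudocount of 0.1 and 1.38 with a pseudocount of 5. Between A375 batch 2 and SKBR3, 4 were higher (14.5%) and 2 lower (36.8%). SLC1A5 differed by 2.35 (SE 0.09, adjusted p = 8.42e-09), SLC6A9 by 1.97 (SE 0.26, adjusted p = 8.27e-05), SLC7A5 by 1.77 (SE 0.07, adjusted p = 2.53e-08) and SLC38A1 by 0.47 (SE 0.09, adjusted p = 0.00109). SLC1A4 differed by -0.74 (SE 0.12, adjusted p = 0.000342), by -0.30, adjusted p = 0.0498 after quantile normalization, and SLC3A2 by -0.26 (SE 0.07, adjusted p = 0.00857), the last not after median scaling (-0.03, adjusted p = 0.796).

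Between SK-Hep1 and SKBR3 the effects on SLC7A5 differed by 0.01 (95% interval -0.20 to 0.21) and those on SLC1A5 by -0.06 (-0.28 to 0.16), and neither passed. In that pair 2 transporters had the higher effect in SK-Hep1 (14.5% of all genes) and 3 the lower (25%). SLC7A1 differed by 0.38 (SE 0.09, adjusted p = 0.00788) and SLC3A2 by -0.45 (SE 0.11, adjusted p = 0.00786). SLC1A4 differed by -0.68 (SE 0.16, adjusted p = 0.00584), but not after quantile normalization (-0.37, adjusted p = 0.0784). SLC38A2 differed by -0.30 (SE 0.09, adjusted p = 0.0199), but not after median scaling (-0.18, adjusted p = 0.0888). SLC38A1 differed by 0.31 (SE 0.11, adjusted p = 0.041), a call lost when any one of 9 libraries was left out, with an adjusted p of 0.055 to 0.0917. The effect on SLC6A9 differed by -0.69 (SE 0.30, adjusted p = 0.0944), which did not pass with all libraries but did without siGCDH replicate 2 of SK-Hep1, siControl replicate 3 of SKBR3 or siGCDH replicate 2 of SKBR3 (adjusted p = 0.0473 to 0.0495).

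Between A375 batch 1 and batch 2, where the batch and the kit cannot be told apart, limma called 0 transporters with the higher effect in batch 1 (0.447% of all genes), and 0 also at an unadjusted p under 0.05, and 1 with the lower effect (4.78%). It was SLC3A2, at -0.76 (SE 0.14, adjusted p = 0.0125), and after median scaling it did not pass (-0.52, adjusted p = 0.066). SLC7A5 differed by -0.42 (SE 0.12, adjusted p = 0.064), and without siGCDH replicate 1 of batch 1 by -0.49 (adjusted p = 0.0237).

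The summed TPM of the 10 transporters averaged 547 ± 8.22 TPM with siGCDH and 785 ± 18.1 TPM with siControl in SKBR3, 472 ± 40.9 TPM with siGCDH and 682 ± 11.5 TPM with siControl in SK-Hep1, 390.4 ± 19.7 TPM with siGCDH and 552 ± 59.4 TPM with siControl in A375 batch 1 and 1256 ± 44.7 TPM with siGCDH and 1222 ± 24.4 TPM with siControl in A375 batch 2 (SD, n = 3 each). Every siGCDH library of SKBR3, SK-Hep1 and A375 batch 1 had a lower sum than every siControl library, and in A375 batch 2 the groups overlapped. SLC3A2 made up 42.1% of the sum with siGCDH and 22.5% with siControl in SKBR3, and SLC7A5 5.9% with siGCDH and 15.8% with siControl. In A375 batch 1 SLC3A2 made up 70.3% with siGCDH and 77.2% with siControl. The chromosome 21 ribosomal rows took 33% of TPM with siGCDH and 17.1% with siControl there, and their part in the lower sum was not tested. The sum is dominated by its most abundant members.

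The siControl libraries of the full-length kit gave the level of each transporter without GCDH knockdown. The lines differed in which transporter led: SLC7A5 at 422 ± 8.34 TPM and SLC3A2 at 378 ± 10.1 TPM in A375 batch 2, SLC38A2 at 292 ± 11.7 TPM in SK-Hep1, and SLC1A5 at 223 ± 4.07 TPM in SKBR3 (SD, n = 3 each). In A375 batch 2 against SK-Hep1, 8 transporters were called higher (45% of all genes) and 2 lower (28.6%). In A375 batch 2 against SKBR3, 4 were higher (34.4%) and 5 lower (40.2%), and in SK-Hep1 against SKBR3, 3 were higher (28.5%) and 7 lower (48.9%).

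**Figure D4:**
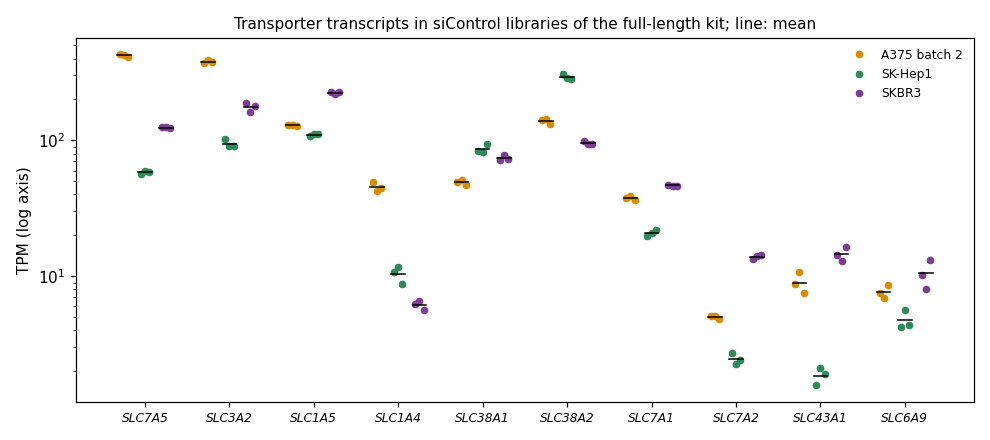
TPM of each transporter in the siControl libraries of A375 batch 2, SK-Hep1 and SKBR3 on a log axis. Points are libraries and lines means of 3. SLC7A5, SLC3A2 and SLC1A4 are highest in A375, SLC38A2 in SK-Hep1, and SLC1A5 and SLC7A2 in SKBR3.

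SLC7A5 was 7.22 times as high in A375 batch 2 as in SK-Hep1 (log2 difference 2.83, adjusted p = 3.76e-11) and 3.4 times as high as in SKBR3 (1.76, adjusted p = 3.2e-10). SLC3A2 kept the same order, A375, SKBR3, SK-Hep1, at 4.0 and 2.14 times the SK-Hep1 and SKBR3 levels. SLC1A4 ran A375, SK-Hep1, SKBR3, at 4.34 and 7.35 times the levels of those lines. SLC38A2 ran SK-Hep1, A375, SKBR3, and SK-Hep1 had 3.06 times the SKBR3 level. SLC38A1 ran SK-Hep1, SKBR3, A375, with SK-Hep1 1.17 times SKBR3. These differences passed in every pair of lines.

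SLC1A5, SLC7A1, SLC7A2, SLC43A1 and SLC6A9 ran SKBR3, A375, SK-Hep1. SLC1A5 in A375 was 1.17 times its SK-Hep1 level (adjusted p = 0.00011), which did not pass after median scaling (0.04, adjusted p = 0.238). SLC43A1 in SK-Hep1 was 7.86-fold below SKBR3, and SLC7A2 5.62-fold. SLC6A9 did not differ beyond its spread between A375 and SKBR3 (log2 difference -0.38, 95% interval -0.77 to 0.01, adjusted p = 0.0742), except without siControl replicate 2 of SKBR3 (-0.54, adjusted p = 0.0151), and between A375 and SK-Hep1 it did not pass after quantile normalization (0.44, adjusted p = 0.0523).

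Over the 18 full-length libraries, which fall into 6 groups of 3, the genes with the pattern most like SLC7A5 by Pearson's r of log2(TPM + 1), among 11744 genes, were PRELID3B (r = 0.992), CENPB (0.990) and NIPA2 (0.988). For SLC7A1 they were NID1 (0.980), GOT2 (0.977) and MYH10 (0.974), and for SLC38A2 TIMP2 (0.988), PLAAT4 (0.985) and HAS3 (0.981). Among the transporters, SLC7A1 was most like SLC43A1 (r = 0.972), and SLC1A5 most like SLC6A9 (0.940). SLC38A2 ran against SLC43A1 (-0.903). These values describe 18 points that share lines and transfections, and level differences between lines enter them as well as the response.

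The factor genes ATF4 and MYC did not move alike. ATF4 averaged 595 ± 5.08 TPM with siGCDH and 315 ± 0.980 TPM with siControl in A375 batch 2 (log2 fold change 0.92 with SE 0.03, adjusted p = 2.35e-06) and 259 ± 9.39 TPM with siGCDH and 145 ± 6.76 TPM with siControl in batch 1 (log2 fold change 0.83 with SE 0.10, adjusted p = 0.00479), where the call was lost under eBayes without trend (adjusted p = 0.0633). In SK-Hep1 it averaged 382 ± 8.99 TPM with siGCDH and 372 ± 4.88 TPM with siControl, with overlap (adjusted p = 0.398), and in SKBR3 922 ± 11.8 TPM with siGCDH and 1061 ± 13.4 TPM with siControl, a small fall (log2 fold change -0.20 with SE 0.03, adjusted p = 0.000371) whose log2 fold change was -0.44 after median scaling and -0.08 after quantile normalization, where it did not pass (adjusted p = 0.055). MYC had 37.9, 39.9 and 41.3 TPM with siGCDH, against 99.1, 104 and 106 TPM with siControl in SK-Hep1 (log2 fold change -1.35 with SE 0.06, adjusted p = 2.06e-06). In SKBR3 it had 36.1, 36.4 and 37.9 TPM with siGCDH, against 167, 170.5 and 167 TPM with siControl (log2 fold change -2.16 with SE 0.04, adjusted p = 2.2e-07). Both were falls without overlap. MYC in A375 batch 2 had 14.5, 13.1 and 14.3 TPM with siGCDH, against 9.89, 11.4 and 9.99 TPM with siControl, a rise (log2 fold change 0.39 with SE 0.09, adjusted p = 0.0158), and without siGCDH replicate 1 or 3, or without siControl replicate 1 its adjusted p was 0.052 to 0.0543 and its log2 fold change 0.36 to 0.37. The rise did not pass in the joint fit of 24 libraries either (adjusted p = 0.0695). In A375 batch 1 MYC averaged 1.07 ± 0.576 TPM with siGCDH and 1.21 ± 0.361 TPM with siControl, with overlap (log2 fold change -0.11, adjusted p = 0.9). NFE2L2, the gene of NRF2, rose in A375 batch 2 (0.35, adjusted p = 0.00194). In A375 batch 1 it was called higher (0.63, adjusted p = 0.0388), but in 5 of 6 fits that left out 1 library (each library except siGCDH replicate 1) its adjusted p was 0.0759 to 0.111 and its log2 fold change 0.55 to 0.70. In SKBR3 it was called higher (0.28, adjusted p = 0.00637), but not after median scaling (0.04, adjusted p = 0.595) or quantile normalization (0.13, adjusted p = 0.122), and in SK-Hep1 it did not pass (0.09). The part of these factors in the transporter changes was not tested.

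The promoter of SLC7A2 was not searched. Of the 5 transporters with C/EBP-ATF letters in a window, SLC3A2, SLC38A1 and SLC1A5 were called higher and SLC7A1 lower in A375 batch 2 (17.9% of all genes higher and 15.7% lower). In A375 batch 1, where ATF4 was called higher as well, limma called 0 of the 5 higher (1.18% of all genes), and 0 also at an unadjusted p under 0.05, and SLC3A2 lower (6.73%). SLC6A9, with neither motif in its window, rose in A375 batch 2, and SLC38A1 was called higher in SK-Hep1 (37.3% of all genes), where ATF4 did not pass. Of the 3 with an E-box, SLC7A5 and SLC1A5 fell in SK-Hep1 (18.2% of all genes lower) and SKBR3 (14.7% lower), where MYC fell. SLC43A1 did not pass in either line. In A375 batch 2, where MYC was called higher, SLC7A5 and SLC43A1 were called lower and SLC1A5 higher. Whether ATF4 or MYC had a part in any of these changes was not tested, and binding was not measured.

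Among 19 genes of the amino acid response, which include ATF4, 16 were called higher (17.9% of all genes tested) and none lower (15.7%) in A375 batch 2. Of 17 tested in SK-Hep1, 8 were higher (37.3%) and 5 lower (18.2%), and of 18 in SKBR3, 5 were higher (47.3%) and 9 lower (14.7%). A375 batch 1 had 5 of 17 called, all higher (1.18%). The list's median log2 fold change was 0.62 in A375 batch 2 (0.02 over all genes tested), 0.25 in A375 batch 1 (-0.20), 0.24 in SK-Hep1 (0.18) and -0.04 in SKBR3 (0.29). ATF3, a partner and target of ATF4, averaged 54.8 ± 3.19 TPM with siGCDH and 11.6 ± 0.405 TPM with siControl (log2 fold change 2.15 with SE 0.07, adjusted p = 2.99e-06) in A375 batch 2 and 33.5 ± 0.598 TPM with siGCDH and 72.6 ± 2.92 TPM with siControl (log2 fold change -1.09 with SE 0.05, adjusted p = 6.27e-06) in SKBR3. The stress phosphatase subunit PPP1R15A rose in A375 batch 2 (113 TPM with siGCDH and 55.6 TPM with siControl, log2 fold change 1.01) and in SK-Hep1 (133 TPM with siGCDH and 41.9 TPM with siControl, log2 fold change 1.64). In SKBR3 the asparagine and serine synthesis genes ASNS and PSAT1 fell, and ASNS averaged 126 ± 10.3 TPM with siGCDH and 297 ± 11.6 TPM with siControl (log2 fold change -1.23 with SE 0.06, adjusted p = 9.04e-06) and PSAT1 128 ± 5.57 TPM with siGCDH and 369.7 ± 10.8 TPM with siControl (log2 fold change -1.52 with SE 0.04, adjusted p = 1.01e-06).

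Of 31 other plasma membrane amino acid transporters, 9 were tested in A375 batch 2, of which 2 were higher (17.9% of all genes) and 2 lower (15.7%). Of 5 tested in SK-Hep1, 2 were called, both lower (18.2%). Of 13 in SKBR3, 5 were higher (47.3%) and 4 lower (14.7%), and of 8 in A375 batch 1, 1 was lower (6.73%). SLC7A11 (xCT), the cystine and glutamate exchanger that also pairs with SLC3A2, fell in all 4 comparisons. It averaged 2.05 ± 0.0954 TPM with siGCDH and 8.8 ± 0.948 TPM with siControl (log2 fold change -1.68 with SE 0.13, adjusted p = 2.95e-05) in SK-Hep1, 2.24 ± 0.483 TPM with siGCDH and 7.69 ± 1.16 TPM with siControl (log2 fold change -1.42 with SE 0.16, adjusted p = 0.000248) in SKBR3, 7.73 ± 1.36 TPM with siGCDH and 16.6 ± 1.12 TPM with siControl (log2 fold change -1.02 with SE 0.13, adjusted p = 0.00108) in A375 batch 2 and 2.29 ± 0.204 TPM with siGCDH and 6.96 ± 0.899 TPM with siControl (log2 fold change -1.27 with SE 0.25, adjusted p = 0.0254) in A375 batch 1. In A375 batch 1 the chromosome 21 ribosomal rows took 33% of TPM with siGCDH and 17.1% with siControl, and calls over all genes moved with the setting. That limit holds for every list gene called in that batch. The taurine transporter SLC6A6 fell in the full-length comparisons, by 0.99 in SKBR3, 0.66 in A375 batch 2 and 0.60 in SK-Hep1 on the log2 scale. The glutamate transporter SLC1A3 rose in A375 batch 2 (18 TPM with siGCDH and 11.8 TPM with siControl, log2 fold change 0.58), and SLC1A1, another glutamate transporter, rose in SKBR3 (6.96 TPM with siGCDH and 3.58 TPM with siControl, log2 fold change 0.80).

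Of 8 lysosomal amino acid transporters, 2 were higher (17.9% of all genes) and 1 lower (15.7%) of 8 tested in A375 batch 2, near the shares of all genes. Of 7 tested in SK-Hep1, 1 was higher (37.3%) and 3 lower (18.2%). In SKBR3 1 of 7 was called, higher (47.3%), and in A375 batch 1 1 of 7, lower (6.73%). MFSD12, a lysosomal cysteine importer, fell in A375 batch 1 (228 TPM with siGCDH and 411 TPM with siControl, log2 fold change -0.84), A375 batch 2 (303 TPM with siGCDH and 417 TPM with siControl, log2 fold change -0.46) and SK-Hep1 (140.2 TPM with siGCDH and 377 TPM with siControl, log2 fold change -1.42). SLC36A1 rose in A375 batch 2 (12.6 TPM with siGCDH and 7.61 TPM with siControl, log2 fold change 0.66) and SKBR3 (10.6 TPM with siGCDH and 8.48 TPM with siControl, log2 fold change 0.29), and the cystine exporter CTNS fell in SK-Hep1 (6.68 TPM with siGCDH and 12.5 TPM with siControl, log2 fold change -0.83). Of the genes through which amino acids are sensed by mTORC1, 6 were higher (17.9% of all genes) and 3 lower (15.7%) of 30 in A375 batch 2, 13 higher (37.3%) and 3 lower (18.2%) of 30 in SK-Hep1, 14 higher (47.3%) and 5 lower (14.7%) of 31 in SKBR3, and 1 higher (1.18%) and 3 lower (6.73%) of 29 in A375 batch 1, so that this list is not set apart from all genes by its counts. The leucine sensor SESN2 rose in SK-Hep1 (29.8 TPM with siGCDH and 8.1 TPM with siControl, log2 fold change 1.76), A375 batch 2 (33.4 TPM with siGCDH and 10.1 TPM with siControl, log2 fold change 1.64) and A375 batch 1 (17.7 TPM with siGCDH and 7.09 TPM with siControl, log2 fold change 1.22). DDIT4, an inhibitor of mTORC1, rose in A375 batch 2 (232 TPM with siGCDH and 184 TPM with siControl, log2 fold change 0.33) and fell in SKBR3 (55.6 TPM with siGCDH and 123 TPM with siControl, log2 fold change -1.13). SESN2 and DDIT4 were also counted in the list of the amino acid response.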

How the data were processed

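RNA libraries of 3 cell lines were made 48 hours after transfection, per the labels' protocols, with QuantSeq 3' kits (A375 batch 1) or NEBNext poly(A) kits (all others), and read single-end. The authors deposited 1 table of TPM with a column for each library. The submitters' processing notes name RSEM 1.3.1, STAR 2.7.0d and cutadapt 2.3 and the build hg38, and the sources used here do not give the annotation version or the strand setting. TPM keep no read totals, so depth is unknown and no counting interval is given. Length correction does not suit 3' tags, so levels were compared within the full-length kit.

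Values were taken as log2(TPM + 1) and fitted with limma 3.58.1 (lmFit, eBayes with trend) in R 4.3.3, two-sided, among genes that averaged 1 TPM or more, with Benjamini-Hochberg adjustment over all genes of a fit and calls at an adjusted p under 0.05. Each line and batch was fitted alone (6 libraries), differences between effects on 12 and siControl levels on 9. The SLC7A5 to SLC3A2 ratio was tested by exact permutation. Fits were tested on simulated data. Promoter sequences came from RefSeq (GRCh38.p14) and gene positions from GENCODE 29, read with Python 3.11.15 and pandas 2.3.3. Figures were drawn with matplotlib 3.10.9.

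Named were all 10 transporters, GCDH, ATF4, NFE2L2 and MYC, from each list the called genes with the 3 smallest adjusted p and at least 5 TPM in the higher group, of which part is printed, and the 3 genes most like SLC7A5, SLC7A1 and SLC38A2. The transporters and lists were chosen with earlier results of these data known. Replicate numbers pair the samples neither by the labels nor by the data. Alternatives were pseudocounts of 0.1 and 5, no filter or 5 TPM, quantile normalization, median scaling, eBayes without trend or robust, a joint fit of 24 libraries, removal of 6 chromosome 21 ribosomal rows, the replicate block and leaving out each library.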

Additional observations from a re-analysis of the deposited data

Results flagged for a closer look

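The transporters named here had effects of siGCDH that differed between lines or batches by the interaction term of limma, with an adjusted p under 0.05, each on the log2 scale. Of A375 batch 2 minus SK-Hep1, the effects differed by 2.66 for SLC6A9, 2.40 for SLC1A5, 1.76 for SLC7A5, 0.44 for SLC38A2 and -0.41 for SLC7A1. Of A375 batch 2 minus SKBR3, they differed by 2.35 for SLC1A5, 1.97 for SLC6A9, 1.77 for SLC7A5, 0.47 for SLC38A1, -0.26 for SLC3A2 and -0.74 for SLC1A4. Of SK-Hep1 minus SKBR3, they differed by 0.38 for SLC7A1, 0.31 for SLC38A1, -0.30 for SLC38A2, -0.45 for SLC3A2 and -0.68 for SLC1A4. Of A375 batch 1 minus batch 2, SLC3A2 differed by -0.76. Not all of these calls held. After median scaling SLC3A2 was not called in A375 batch 2 minus SKBR3 (adjusted p = 0.796) or in A375 batch 1 minus batch 2 (adjusted p = 0.066). In SK-Hep1 minus SKBR3, SLC1A4 was lost after quantile normalization, SLC38A2 after median scaling, and SLC38A1 in most fits that left out 1 library. SLC7A1 was lost in the joint fit in both of its comparisons.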

How the results depend on the processing

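Of 2053 values of single transporters under alternatives, 1942 kept their side of the threshold, 81 lost the call, 30 gained one and none of the called values changed sign. Values uncalled in both fits were counted as kept even where their sign changed. One such value was SLC1A4 in A375 batch 1, with a log2 fold change of -0.12 as reported and up to 0.16 under alternatives. In A375 batch 1, 0 transporters were called lower without a filter, under quantile normalization, median scaling, eBayes without trend, removal of the chromosome 21 rows or the replicate block, and 5 lower and 1 higher in the joint fit, against 1 and 0 as reported. In batch 2, 1 was lower without a filter, 2 under eBayes without trend, and 2 lower and 2 higher in the joint fit. In SK-Hep1, 3 were lower with the 5 TPM filter, which leaves fewer genes, and 0 higher under quantile normalization, median scaling and the joint fit. In SKBR3, 1 was higher under quantile normalization and median scaling. For A375 batch 2 minus SK-Hep1, 2 were lower with a pseudocount of 5 and 0 in the joint fit. For A375 batch 2 minus SKBR3, 1 was lower under median scaling and the joint fit. For SK-Hep1 minus SKBR3, 1 was higher without a filter and under eBayes without trend, and 0 in the joint fit. For A375 batch 1 minus batch 2, 2 were lower with a pseudocount of 0.1 and in the joint fit, and 0 under quantile normalization, median scaling, eBayes without trend, removal of the chromosome 21 rows and the replicate block. What caused these shifts was not tested. Leaving out 1 library at a time, counts ranged 0 to 1 (lower, A375 batch 1), 3 to 4 higher and 1 to 3 lower (batch 2), 0 to 1 higher (SK-Hep1), 1 to 2 higher and 3 to 4 lower (SK-Hep1 minus SKBR3), 4 to 5 higher and 1 to 2 lower (A375 batch 2 minus SK-Hep1), 4 to 5 higher and 2 to 3 lower (A375 batch 2 minus SKBR3) and 1 to 2 lower (A375 batch 1 minus batch 2). The difference in the log2 ratio of SLC7A5 to SLC3A2 in A375 batch 1, not a called value, ranged from -0.051 to 0.11. Over all genes, A375 batch 1 had 152 higher and 866 lower calls as reported, 14 and 71 under eBayes without trend, 1408 and 4150 in the joint fit, and 45 to 97 higher and 244 to 495 lower without 1 library, so that the shares of all genes given for that batch move with the setting.

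The replicate numbers do not pair the samples. Correlations of deviations between same-numbered libraries ran from -0.03 to 0.06 over 12 pairs, and 2 of the 12 siGCDH libraries correlated best with their own number. With the replicate block, 2 transporters were called lower in A375 batch 2 and 0 in batch 1.

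TPM hold no read counts, so counting error is not given, and low transcripts such as SLC7A2 and SLC6A9 in A375 batch 1 are limited by that batch's wide spread.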
